A study of Homo sapiens with 8 samples.

Results

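The clustered protocadherins are cell-surface adhesion proteins encoded by 3 neighbouring gene clusters on human chromosome 5. Members were the protein-coding genes of the count table whose symbol begins with PCDHA, PCDHB or PCDHG, which gave 53 of the 58395 genes listed. They are 13 alpha and 2 alpha C-type genes, 16 beta genes, and 12 gamma A, 7 gamma B and 3 gamma C-type genes. RNA was measured by single-end sequencing of polyA libraries from iCell DopaNeurons, a commercial product of dopaminergic neurons made from human induced pluripotent stem cells. Neurons were plated on coverslips that carried a GDNF mimic nanostructure (GDNF, 4 libraries), which copies glial cell line-derived neurotrophic factor, or its scrambled form (CT, 4 libraries), and were taken on day 4. The labels do not spell out CT, which is read here as the scrambled nanostructure, the comparator that the series names. All 8 samples carry a treatment label of 10.73 mM, no separate cultures or donors are named, and the design text speaks of 3 biological replicates per condition, so the spread behind the p-values is that of these libraries and may be technical.

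Clustered protocadherins give neurons an identity at the cell surface. Each alpha or gamma gene has its own promoter and its own large variable exon, which encodes the extracellular, transmembrane and proximal cytoplasmic parts, and is spliced to constant exons that all genes of the cluster share. Beta genes have a variable exon and no constant exons. In mouse neurons, promoters of the alpha, beta and gamma A and B genes are chosen apparently at random in each cell, with CTCF and cohesin bound at the chosen promoter and DNA methylation at those that are silent, whereas C-type genes are expressed more evenly. The proteins pair as cis dimers, recognise identical sets on other membranes, and in mice serve dendrite self-avoidance, axon tiling and neuron survival. RET, the receptor tyrosine kinase through which GDNF signals, is known to phosphorylate protocadherins in mouse.

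Total counts ranged from 28698283 to 34559240 per library. The library of CT replicate 2 stood apart: its log CPM correlated with those of other libraries at a median of 0.960, against at least 0.986 for each of the rest, and its deviation from the other libraries rose with the GC content of the gene (Spearman's rho 0.805 over all genes tested, a description across genes). Deviations from the mean of all 8 libraries followed GC content in others too, with rho of 0.49 in GDNF replicate 4 and -0.54 to -0.64 in CT replicates 1 and 4 and GDNF replicates 1 and 2, but of -0.02 and -0.03 in CT replicate 3 and GDNF replicate 3. Of 10 dopaminergic neuron markers, 9 averaged at least 1 CPM (read counts relative to library size, scaled with TMM factors), the exception being the dopamine transporter gene SLC6A3, as did 8 of 8 general neuron markers. Markers of astrocytes summed to between 3.58 and 6.01 CPM per library, with 2 of 6 averaging at least 1 CPM, and none of 4 microglia or endothelium markers or of 3 serotonergic markers reached 1 CPM. Marker lists of other cells also gave counts: progenitor markers summed to 177 to 249 CPM (5 of 6 averaging at least 1 CPM), oligodendrocyte lineage markers to 47.9 to 55.1 CPM (2 of 6), fibroblast or pericyte markers to 31.4 to 55.5 CPM (2 of 4) and pluripotent cell markers to 1.14 to 2.46 CPM (1 of 3). Single genes carried most of these sums. NES gave 163 to 233 CPM, where SOX2 gave 5.95 to 8.26 CPM and PAX6 stayed under 1 CPM. MBP gave 44.7 to 52.9 CPM, and OLIG1, OLIG2 and SOX10 stayed under 1 CPM. COL1A1 gave 16.9 to 34.3 and COL1A2 12.5 to 20.7 CPM, and DCN and PDGFRB stayed under 1 CPM. LIN28A gave 1.14 to 2.33 CPM, and POU5F1 and NANOG at most 0.0691 and 0.133 CPM. Whether such cells were present, and their part in the levels below, was not tested. RNA here is that of whole cultures, in which a gene used strongly in few cells and one used weakly in many cannot be told apart.

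The constant exons are shown first, because they set what a count can mean. In the GENCODE 29 annotation (GRCh38, + strand), the coding parts of 3 constant exons, 456 bases in all, are shared by the 15 genes of the alpha cluster, and 372 bases are shared by the 22 genes of the gamma cluster. The first constant exon of each cluster, 59 bases long, reads as follows, 5′ to 3′.
alpha constant exon, chr5:140978949-140979007: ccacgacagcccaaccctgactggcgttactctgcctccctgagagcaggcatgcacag
gamma constant exon, chr5:141494807-141494865: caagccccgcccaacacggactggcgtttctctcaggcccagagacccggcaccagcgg
A read that lies within these exons belongs to no particular member, and the authors' treatment of such reads is not given in the sources used here. For this reason, levels of different genes were compared per length. The main length was the gene's exonic bases that no other annotated gene covers on either strand (CPM per kb). Where stated, levels were given per kb of the gene's variable coding exon. Exclusive bases made up between 35.6% of exonic bases for PCDHGB4 and 100% for PCDHB4, PCDHB12 and PCDHB13. Reads in the constant exons, if counted, add to a member's CPM without adding to this length.

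Promoters are shown next, since promoter choice decides which variable exon is transcribed. RefSeq windows on GRCh38.p14, from 250 bases before to 50 bases after the transcription start, matched 47 of the 53 members and gave 52 windows, with 2 windows each for PCDHGB1, PCDHGB4, PCDHGB5, PCDHGB6 and PCDHGC4. No window was matched for PCDHA3, PCDHA13, PCDHB6, PCDHB11, PCDHGA12 and PCDHGC5. Their promoters were therefore not examined, among them those of low members such as PCDHA13, PCDHGA12 and PCDHGC5. The 100 bases before the start are printed for some members at the top and the bottom of their group by level, chosen after the levels and matches were seen, + strand, 5′ to 3′. In alpha and gamma genes the capitals mark every CGCT, the letters at the core of the conserved sequence element of protocadherin promoters. These letters are common in promoters at large (below), so a mark does not show that the element is present. For PCDHGB4, PCDHGB6 and PCDHGC4, which have 2 windows each, the stretch printed is from the window nearer the 5′ end. The 100 bases before the start in their other window hold 0 matches of CGCT.
PCDHA6, chr5:140827860-140827959: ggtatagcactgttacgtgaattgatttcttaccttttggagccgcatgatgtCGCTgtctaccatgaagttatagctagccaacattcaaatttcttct
PCDHA2, chr5:140794752-140794851: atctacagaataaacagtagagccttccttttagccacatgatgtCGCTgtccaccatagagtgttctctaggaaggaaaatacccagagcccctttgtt
PCDHA4, chr5:140806968-140807067: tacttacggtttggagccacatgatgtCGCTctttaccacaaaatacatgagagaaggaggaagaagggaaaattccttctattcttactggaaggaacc
PCDHA9, chr5:140848282-140848381: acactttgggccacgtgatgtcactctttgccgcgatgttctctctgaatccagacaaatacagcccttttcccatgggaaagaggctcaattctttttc
PCDHAC1, chr5:140926199-140926298: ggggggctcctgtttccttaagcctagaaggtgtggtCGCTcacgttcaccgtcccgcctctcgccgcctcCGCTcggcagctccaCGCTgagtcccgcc
PCDHAC2, chr5:140966376-140966475: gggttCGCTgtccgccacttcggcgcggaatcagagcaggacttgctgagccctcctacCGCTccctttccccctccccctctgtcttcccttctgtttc
PCDHGA7, chr5:141382642-141382741: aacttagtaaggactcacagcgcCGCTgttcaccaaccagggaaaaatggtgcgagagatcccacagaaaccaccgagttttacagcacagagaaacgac
PCDHGA5, chr5:141364062-141364161: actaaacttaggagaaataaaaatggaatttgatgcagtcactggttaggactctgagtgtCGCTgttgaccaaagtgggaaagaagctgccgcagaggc
PCDHGB3, chr5:141370142-141370241: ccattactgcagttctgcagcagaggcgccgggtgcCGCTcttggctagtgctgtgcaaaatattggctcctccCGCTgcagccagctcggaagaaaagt
PCDHGB4, chr5:141387598-141387697: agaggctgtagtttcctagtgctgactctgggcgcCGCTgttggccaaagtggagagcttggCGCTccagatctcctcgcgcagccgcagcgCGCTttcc
PCDHGB6, chr5:141407921-141408020: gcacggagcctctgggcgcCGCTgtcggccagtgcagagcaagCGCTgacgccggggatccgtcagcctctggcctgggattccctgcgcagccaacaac
PCDHGB7, chr5:141417577-141417676: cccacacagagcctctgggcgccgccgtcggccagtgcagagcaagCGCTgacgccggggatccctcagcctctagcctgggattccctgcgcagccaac
PCDHGC4, chr5:141484930-141485029: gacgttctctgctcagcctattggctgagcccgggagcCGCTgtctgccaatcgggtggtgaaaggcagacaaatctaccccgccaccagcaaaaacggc
In beta genes the capitals mark GGNGGCNCT, a short form of the motif that CTCF binds, where N is any base and which contains CGCT where its last free letter is G.
PCDHB2, chr5:141094515-141094614: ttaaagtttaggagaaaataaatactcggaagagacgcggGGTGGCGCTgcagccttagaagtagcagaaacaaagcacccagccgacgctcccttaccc
PCDHB5, chr5:141135106-141135205: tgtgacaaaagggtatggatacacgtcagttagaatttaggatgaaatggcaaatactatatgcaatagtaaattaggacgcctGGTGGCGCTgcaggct
PCDHB1, chr5:141051274-141051373: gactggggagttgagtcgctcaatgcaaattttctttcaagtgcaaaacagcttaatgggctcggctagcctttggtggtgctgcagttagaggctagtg

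On the sense strand, CGCT was present in 51 of the 52 member windows (98.1%), against 54.3% of all 35116 RefSeq promoter windows of the same length. The 2 windows of a gene overlap, so a match can count in both of them. By gene, CGCT was present on the sense strand of 46 of the 47 members with a window. On either strand (the reverse complement is AGCG) the shares of windows were 98.1% and 70.0%. The exception was PCDHA9, the member with the lowest level of all, whose window holds CGCT on neither strand. Between 100 and 30 bases before the start, a stretch chosen after the matches were seen, CGCT lay on the sense strand of 43 member windows (82.7%) and of 21.6% of all windows. A longer context differed between groups: ATGTCGCT was found in 9 of 11 alpha windows and in 0.154% of all windows, and CGCTGTT in 10 of 11 gamma A windows, 4 of 11 gamma B windows and 1.205% of all windows, both on the sense strand and both chosen after the sequences were seen. GGNGGCNCT was present on the sense strand of 13 of 14 beta windows, in no sense strand of the alpha or gamma windows, and in 5.01% of all windows. On either strand it lay in 28.8% of member windows and 9.23% of all windows. The beta window without it was that of PCDHB1, the beta gene with the lowest level. Low levels also occurred with these letters: PCDHGB3, the lowest gamma B gene, PCDHGA5, the lowest gamma A gene, and PCDHAC1, the lower alpha C gene, each hold CGCT in the printed stretch. PCDHGB7, one of the highest members, has 1 match of CGCT in the printed stretch, where the similar PCDHGB6 has 2. The match of PCDHGB7 has the same neighbouring letters as the PCDHGB6 match nearer the start. The other match of PCDHGB6 is absent from PCDHGB7. TATAAA was found in 11.5% of member windows and 11.5% of all windows on either strand. A match describes letters only, and no binding was measured here.

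**Figure D1:**
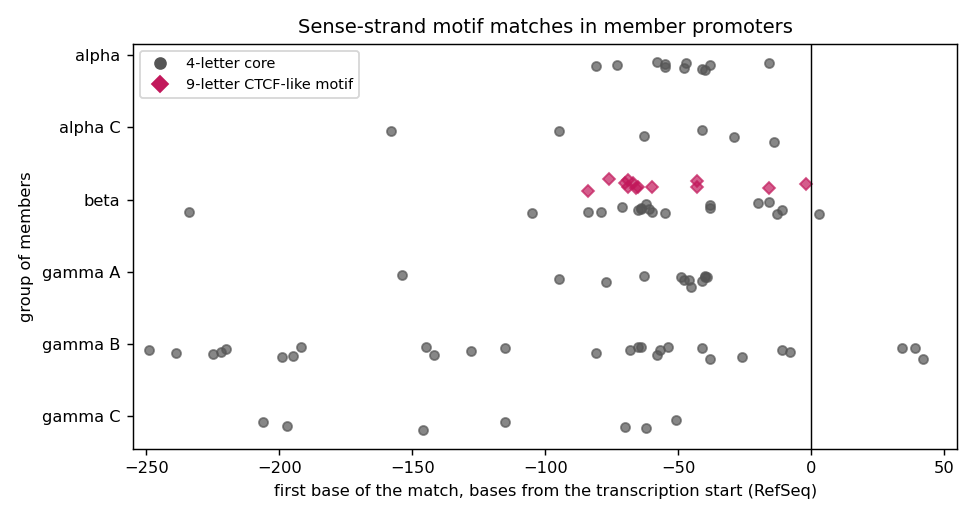
Position of motif matches on the sense strand of the 52 member promoter windows, in bases from the RefSeq transcription start (0), by group of members; grey circles mark every CGCT (4-letter core) and magenta diamonds the 9-letter CTCF-like motif. Most CGCT matches of the alpha, beta and gamma A genes lie between 100 and 30 bases before the start, and diamonds are found in beta genes only, in 13 of 14 windows.

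Levels of the members spanned 3085-fold, from 0.00808 CPM per kb for PCDHA9 to 24.9 CPM per kb for PCDHGB4 (means of 8 libraries). Per kb of variable coding exon the span was 1145-fold. Its lower end rests on 14 counts of PCDHA9 in all libraries, 7 of them from GDNF replicate 1, and without that library, a check chosen after seeing the data, the span was 5132-fold. By total level, 17 members averaged at least 10 CPM, 28 averaged 1 to 10 CPM and 8 averaged under 1 CPM. Per exclusive kb, PCDHGB4 was followed by PCDHB2 at 16.8, PCDHGC4 at 16.1, PCDHGB6 at 12.3, PCDHB5 at 12.1 and PCDHGB7 at 10.2 CPM per kb. PCDHB2 (15.1 to 19.1) and PCDHGC4 (13.3 to 20.7) overlapped over the libraries, as did PCDHGB6, PCDHB5 and PCDHGB7. Per kb of its 4126 exonic bases, all exclusive on its own strand, PCDHB2 gave 14.3 CPM per kb. The order depended on the length used. Per kb of variable coding exon, PCDHGB4 at 25.6 was followed by PCDHB2 at 24.7, PCDHGB6 at 23.3, PCDHA4 at 19.4 and PCDHGC4 at 18.4 CPM per kb. Every group of members thus held strongly and weakly represented genes, and highest and lowest members within a group differed by 4.90-fold in alpha C and by 1229-fold in alpha (867-fold per kb of variable coding exon, and 2026-fold per exclusive kb without GDNF replicate 1). Of the 53 genes, 3 did not pass the low-count filter and were not tested between coatings: PCDHA9, PCDHA13 and PCDHB1.

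**Figure D2:**
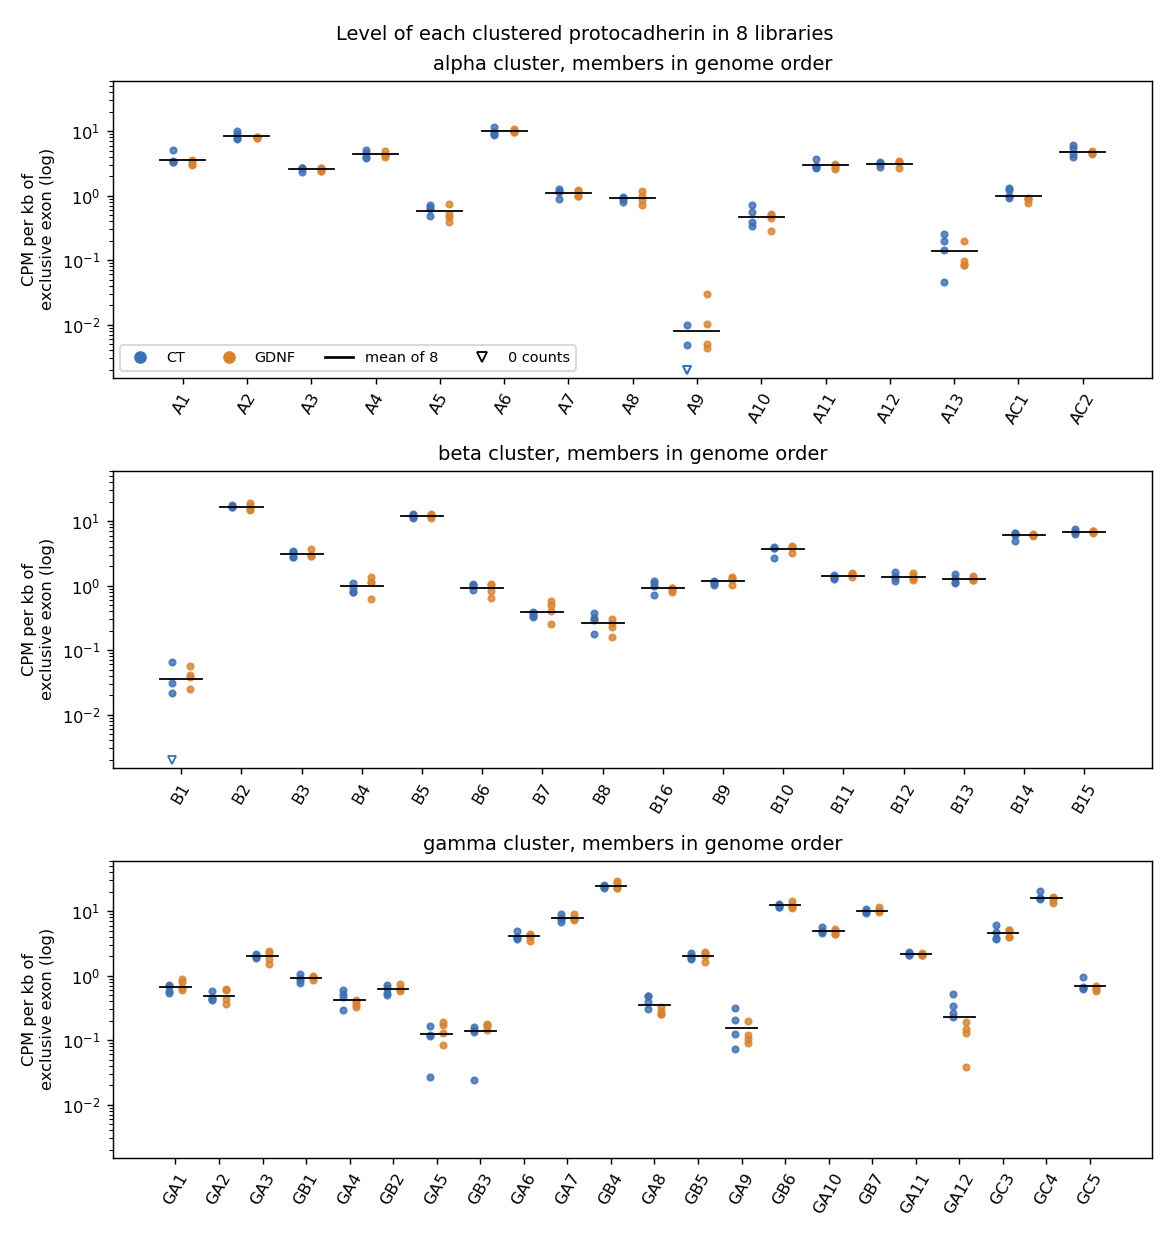
Level of each member in CPM per kb of exclusive exonic bases on a log axis, in genome order, for the alpha, beta and gamma clusters; blue circles are the 4 CT libraries, orange circles the 4 GDNF libraries, black lines the mean of 8, and open triangles at the foot mark libraries with 0 counts. PCDHGB4 is the highest gene at 24.9 CPM per kb and PCDHA9 the lowest at 0.00808, and the symbols of both coatings lie together for nearly all genes.

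Among the alpha genes, PCDHA6, PCDHA2 and PCDHA4 were highest, at 9.93 ± 1.03, 8.33 ± 0.801 and 4.37 ± 0.468 CPM per kb (SD, n = 8 libraries). PCDHA6 and PCDHA2 overlapped over the libraries, as did PCDHA4 with the next gene, PCDHA1 at 3.54 CPM per kb, whereas PCDHA2 lay above PCDHA4 in every library. The place of PCDHA4 depended on the length used, because its exclusive exonic bases (10574) include much more than its variable coding exon: per kb of that coding exon it was the highest alpha gene at 19.4 CPM per kb, above PCDHA6 at 13.6. PCDHA6 gave 31.3, 38.6, 28.1 and 29.6 CPM in CT and 31.6, 31.6, 36.0 and 32.7 CPM in GDNF. PCDHA4 gave 49.4, 53.4, 40.0 and 42.8 CPM in CT and 44.9, 41.4, 52.1 and 45.7 CPM in GDNF. Both genes overlapped between the coatings, and for each the highest value came from CT replicate 2. PCDHA9 had 1, 2, 0 and 0 counts in CT and 7, 1, 1 and 2 counts in GDNF, where a count of 0 allows up to 0.105 CPM in CT replicate 3 and 0.0963 CPM in CT replicate 4. PCDHA13, next lowest, had 3 to 15 counts per library. In genome order, levels tended to be lower towards the 3′ end of the 13 alpha genes (Spearman's rho -0.53, and -0.47 per kb of variable coding exon, a description over genes of the same libraries).

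Among the beta genes, PCDHB2 led with 16.8 ± 1.28 CPM per kb, followed by PCDHB5 at 12.1 ± 0.762 and PCDHB15 at 6.90 ± 0.397 (SD, n = 8). These 3 did not overlap over the libraries, but PCDHB15 overlapped with PCDHB14 at 6.09, and per kb of variable coding exon PCDHB14 took its place at 11.9 against 10.5 CPM per kb. PCDHB2 gave 61.1, 61.6, 58.4 and 58.7 CPM in CT and 59.3, 52.9, 66.9 and 53.7 CPM in GDNF. PCDHB5 gave 36.1, 32.1, 34.3 and 37.2 CPM in CT and 36.7, 34.8, 38.0 and 32.3 CPM in GDNF. The 4 GDNF values of PCDHB2 spread on both sides of the CT values, and those of PCDHB5 covered nearly the same range as CT. PCDHB1, which lies at the 5′ end of the cluster, had 8, 0, 5 and 17 counts in CT and 11, 16, 10 and 6 counts in GDNF, where the count of 0 in CT replicate 2 allows up to 0.0960 CPM. Over the 16 beta genes, position and level were only loosely related (rho 0.25, a description).

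The gamma A and gamma B genes alternate along the gamma cluster, and their highest and lowest members differed 63.1-fold in gamma A and 178-fold in gamma B. In gamma B, PCDHGB4 at 24.9 ± 2.47, PCDHGB6 at 12.3 ± 1.10 and PCDHGB7 at 10.2 ± 0.702 CPM per kb (SD, n = 8) stood above PCDHGB5 at 2.02 in every library. In gamma A, PCDHGA7 at 7.91 ± 0.789, PCDHGA10 at 4.88 ± 0.440 and PCDHGA6 at 4.06 ± 0.437 CPM per kb were highest, and PCDHGA7 did not overlap with the others over the libraries. These orders depended on the length used. Per kb of variable coding exon, PCDHGB4 at 25.6 and PCDHGB6 at 23.3 CPM per kb overlapped over the libraries, as did PCDHGA7 at 10.6 with PCDHGA6 at 9.60, and PCDHGA6 with PCDHGA10 at 8.94. PCDHGB4 gave 60.8, 63.3, 56.2 and 58.4 CPM in CT and 55.7, 56.2, 72.5 and 67.4 CPM in GDNF. GDNF replicates 3 and 4 were the highest of the 8 and GDNF replicate 1 the lowest, so the groups overlapped. PCDHGA7 gave 24.9, 29.8, 26.0 and 22.0 CPM in CT and 25.9, 24.9, 29.04 and 23.9 CPM in GDNF, again overlapping. PCDHGA5, at 0.125 CPM per kb, was the lowest gamma A gene and PCDHGB3, at 0.140, the lowest gamma B gene. Per kb of variable coding exon PCDHGA9 was lower, at 0.163 against 0.184 CPM per kb for PCDHGA5, with overlap over the libraries. PCDHGB4 shares exonic bases with PCDHGA8 in the annotation, so that the division of reads between these genes is uncertain.

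The C-type genes sit at the 3′ end of the alpha and gamma variable exons. PCDHGC4, which mouse interneurons need for survival, averaged 16.1 ± 2.09 CPM per kb (SD, n = 8). By mean per exclusive kb it was the third highest member, overlapping with PCDHB2 over the libraries. Per kb of variable coding exon it had rank 5 among the members, at 18.4 CPM per kb. PCDHGC3, which in mouse neurons promotes dendrite branching and binds AXIN1, averaged 4.59 ± 0.855, and PCDHGC5 averaged 0.680 ± 0.114 CPM per kb. PCDHAC2, which mouse serotonergic axons need for tiling, averaged 4.85 ± 0.631 and PCDHAC1 0.990 ± 0.189 CPM per kb. The 3 gamma C genes did not overlap with each other over the libraries, nor did the pair of alpha C genes. PCDHGC4 gave 45.5, 57.7, 43.6 and 44.1 CPM in CT and 41.5, 37.1, 44.9 and 45.9 CPM in GDNF. PCDHGC3 gave 15.4, 20.1, 12.5 and 12.2 CPM in CT and 12.7, 13.2, 16.4 and 16.8 CPM in GDNF. PCDHAC2 gave 17.5, 19.2, 14.3 and 12.8 CPM in CT and 15.2, 14.8, 14.3 and 15.7 CPM in GDNF. In each of these genes CT replicate 2 was the highest library, and the other CT libraries overlapped with GDNF.

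The pattern of levels over members was alike in all libraries. Across the 53 members, Spearman's rho between libraries was 0.978 to 0.995 over the 28 pairs, with a median of 0.989 for pairs of the same coating and 0.989 for pairs of different coatings, and 0.978 to 0.988 for the 7 pairs with CT replicate 2 (a description across genes, which share library and length). Summed over all members, the clustered protocadherins made up 653 to 736 CPM in CT and 648 to 727 CPM in GDNF.

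Between the coatings, no clustered protocadherin passed the test, and most of the fold changes were small. In edgeR's quasi-likelihood test with Benjamini-Hochberg adjustment over all genes, 0 of the 50 members tested had an adjusted p under 0.05, and 0% of all 19999 genes tested did. At an unadjusted p under 0.05, 0 of 50 members were higher in GDNF, where 0.3% of all genes were, and 2 were lower (4%), where 0.58% of all genes were. Evenly spread p-values would put about 1 in 20 of all genes tested under 0.05. Fewer reached it here, so the p-values may be too large, and a lack of calls is weak evidence of no difference. An unadjusted p under 0.05 was reached by 176 genes in edgeR, 151 in DESeq2 and 837 in limma-voom, and none of these tools called a gene. Among the members these were PCDHGA12 and PCDHGA8, both lower in GDNF, in edgeR and in DESeq2. In limma-voom, run here with a quality weight for each library, PCDHGA12 and PCDHGA4 were lower in GDNF, with log2 fold changes of -1.07 and -0.57. PCDHGA1, PCDHGA5 and PCDHGB3 were higher there, with 0.45, 1.03 and 1.16. Log2 fold changes, GDNF over CT, were above 0 for 23 members and below 0 for 27, that is 46% above 0, near the 47.6% of all genes. Their median was -0.0093, against -0.0098 over all genes tested. The 95% confidence interval lay within a 2-fold change either way for 45 of the 50 members and within a 1.5-fold change for 33, so that for these genes a larger difference than that lies outside the interval. The interval reached past a 2-fold change for PCDHGA12, PCDHGA5, PCDHGA8, PCDHGA9 and PCDHGB3, all averaging under 2 CPM.

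**Figure D3:**
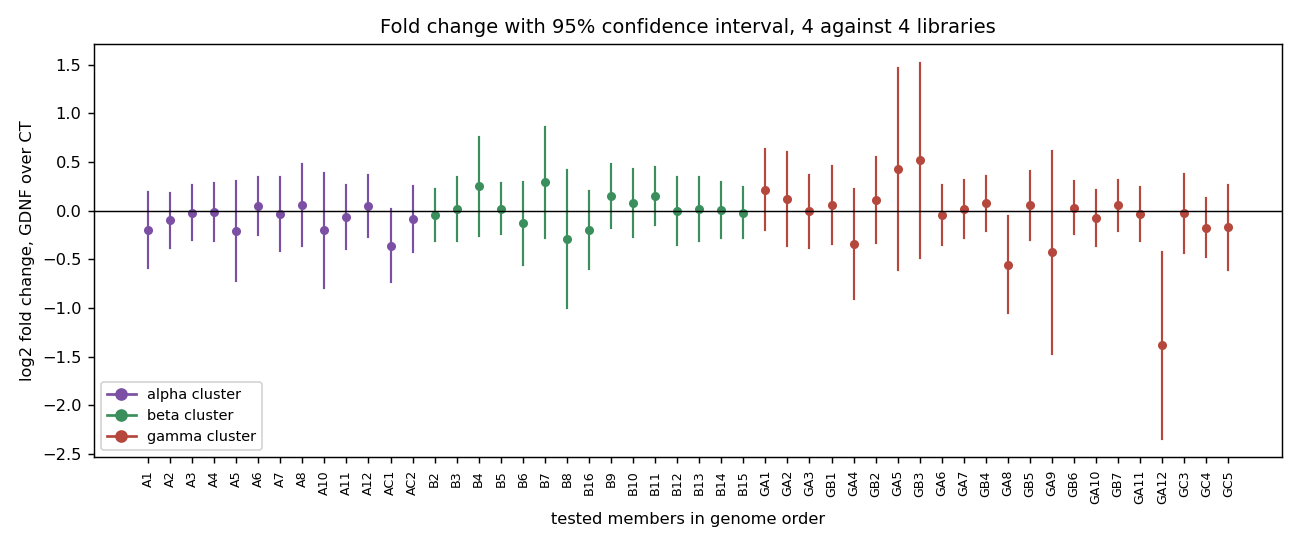
Log2 fold change, GDNF over CT, of the 50 tested members in genome order with 95% confidence intervals from edgeR (4 against 4 libraries); purple is the alpha cluster, green the beta cluster and red the gamma cluster. The interval includes 0 for 48 members; the exceptions are PCDHGA8 at -0.55 and PCDHGA12 at -1.38, and neither passed the adjusted threshold.

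PCDHGA12, the last gamma A gene before the C-type genes, had the smallest unadjusted p of the members, and is named here after its values were seen, since its mean lies under 1 CPM. It gave 0.601, 1.36, 0.691 and 0.882 CPM in CT and 0.400, 0.343, 0.101 and 0.507 CPM in GDNF, which are 19 to 41 and 3 to 15 counts. All 4 GDNF libraries lay below all 4 CT libraries, as was the case for 0.625% of all genes tested, and no member had all GDNF libraries above CT, which 0.305% of all genes had. Its log2 fold change was -1.38 (SE 0.435), with an unadjusted p of 0.00881 and an adjusted p of 0.9999 in edgeR, and the log2 fold change was -1.09 without CT replicate 2. PCDHGA8 gave 1.27, 2.03, 2.04 and 1.64 CPM in CT and 1.40, 1.09, 1.08 and 1.18 CPM in GDNF. Its groups overlapped, CT replicate 1 lying within the GDNF range, and its log2 fold change was -0.55 (SE 0.225), with an unadjusted p of 0.0316 in edgeR's quasi-likelihood test. The unadjusted p was not under 0.05 in limma-voom (log2 fold change -0.30), with the replicate block, with no filter, or without CT replicate 2 or 3 or GDNF replicate 2, 3 or 4. For PCDHGA12 it was under 0.05 in every setting in which the gene was tested, at 0.00191 to 0.0267. PCDHAC1 gave 4.02, 5.32, 5.08 and 3.72 CPM in CT and 3.77, 3.09, 3.60 and 3.68 CPM in GDNF, with a log2 fold change of -0.36 (SE 0.170). CT replicate 4 lay within the GDNF range, and the unadjusted p was 0.058 in edgeR, with a log2 fold change of -0.22 in limma-voom. PCDHGA4, PCDHGA1 and PCDHGC4 were next by unadjusted p among members of at least 1 CPM. PCDHGA4 gave 1.27, 0.798, 1.42 and 1.61 CPM in CT and 0.885, 0.943, 1.14 and 1.05 CPM in GDNF. Its groups overlapped through the low CT replicate 2, and its log2 fold change of -0.34 was -0.51 without CT replicate 2 and -0.21 without CT replicate 4. PCDHGA1 gave 2.37, 2.79, 2.87 and 2.21 CPM in CT and 3.57, 3.29, 2.42 and 2.60 CPM in GDNF. GDNF replicates 1 and 2 were the highest, the other GDNF libraries lay within the CT range, and its log2 fold change of 0.22 was 0.12 without GDNF replicate 1. That of PCDHGC4 was -0.17, and -0.06 without CT replicate 2.

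By group of members, log2 fold changes were above 0 for 3 of 11 alpha, 0 of 2 alpha C, 9 of 15 beta, 4 of 12 gamma A, 7 of 7 gamma B and 0 of 3 gamma C genes. None of these counts rests on a gene that passed the test. The medians were -0.03 for alpha, -0.22 for alpha C, 0.02 for beta, -0.04 for gamma A, 0.06 for gamma B and -0.17 for gamma C. The split of gamma B became 5 above 0 and 2 below without GDNF replicate 3 and in limma-voom, and 6 to 1 without CT replicate 1, without GDNF replicate 4 and with the replicate block and GC offsets together. For gamma C, 1 of 3 genes was above 0 without CT replicate 2, without GDNF replicate 1, without GDNF replicate 2, in limma-voom and with GC offsets alone or with the block, and for alpha C 1 of 2 without CT replicate 2 and in limma-voom. Without CT replicate 2 the median of gamma C was -0.0059, and the splits of alpha, beta and gamma A also moved: 7 of 12 alpha genes were above 0 (median 0.0030), 5 of 16 beta genes (median -0.024) and 6 of 12 gamma A genes (median 0.00044). For beta it was 7 of 15 with GC offsets, alone or with the block, 6 of 15 in limma-voom and 8 of 16 without CT replicate 3. For gamma A it was 6 of 12 with GC offsets, alone or with the block, and without GDNF replicate 1.

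**Figure D4:**
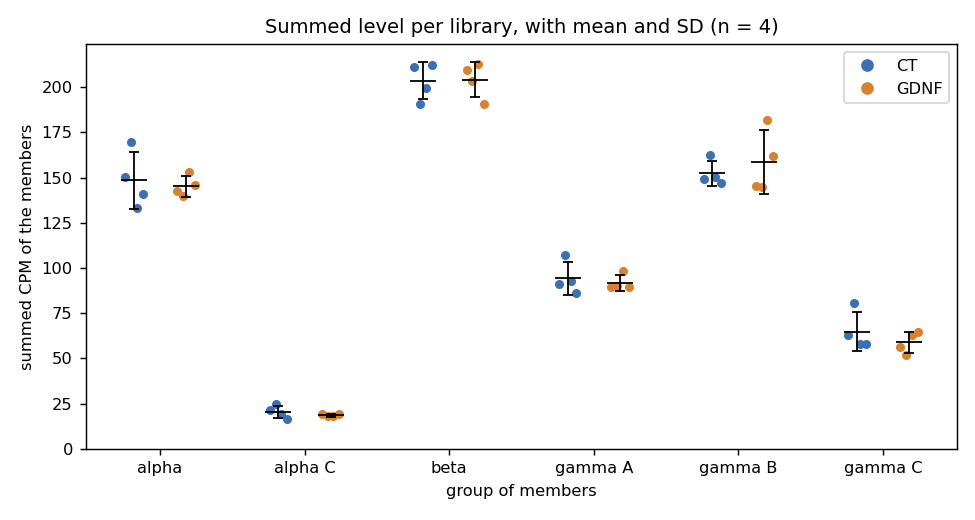
Summed CPM of the members in each group of members, for each of 8 libraries; blue circles are CT and orange circles GDNF, and bars give the mean and SD (n = 4). The coatings overlap in every group of members, with the beta genes at 204 CPM in both, and CT replicate 2 is the highest CT library in all groups except beta.

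Summed levels were 204 ± 10.2 CPM in CT and 204 ± 9.85 CPM in GDNF for beta genes, 148 ± 15.9 and 145 ± 5.81 for alpha, 94.4 ± 9.14 and 91.9 ± 4.46 for gamma A, and 152 ± 6.91 and 159 ± 17.6 for gamma B (SD, n = 4). For the C-type genes they were 64.8 ± 10.7 and 58.9 ± 5.83 CPM for gamma C, and 20.5 ± 3.39 and 18.6 ± 0.765 CPM for alpha C. All these differences were smaller than the larger of the 2 SDs. Without CT replicate 2 the CT mean of gamma C was 59.6 ± 2.72 CPM and that of alpha C 19.1 ± 2.51 CPM (n = 3). Those of alpha, at 141 ± 8.70 CPM, and of gamma A, at 90.05 ± 3.40 CPM, were then below the GDNF means, and that of beta, at 208 ± 6.92 CPM, above it.

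CT replicate 2 differed from the other libraries in opposite directions for beta genes and for the rest. Set against the mean of the other 7 libraries, its median log2 difference was 0.52 for gamma C (3 of 3 genes above), 0.42 for alpha C (2 of 2), 0.25 for gamma A (10 of 12), 0.22 for alpha (8 of 11), 0.15 for gamma B (7 of 7) and -0.15 for beta genes (4 of 15 above), against 0.03 over all genes tested. Members have variable coding exons of 51.9% to 58.6% GC. For all genes, GC content was taken from the longest transcript, which is a different measure. By it, genes in the third quartile had a median of 0.27 in this library and those in the highest quartile 0.57. Beta genes had a median GC of 55.6% in the variable coding exon, and gamma B genes one of 53.7%. In longest transcripts the tested beta genes had 44.8% (PCDHB16) to 54.0% (PCDHB8). Gamma B genes had 44.2% (PCDHGB4), 46.9% (PCDHGB6) and, for the rest, 54.8% (PCDHGB3) to 55.4% (PCDHGB7). Gamma C genes had 55.4% (PCDHGC4) to 56.5% (PCDHGC3). Among the 50 members rho between GC content of the variable coding exon and the difference was 0.12. The part that GC content has in these differences was not tested.

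**Figure D5:**
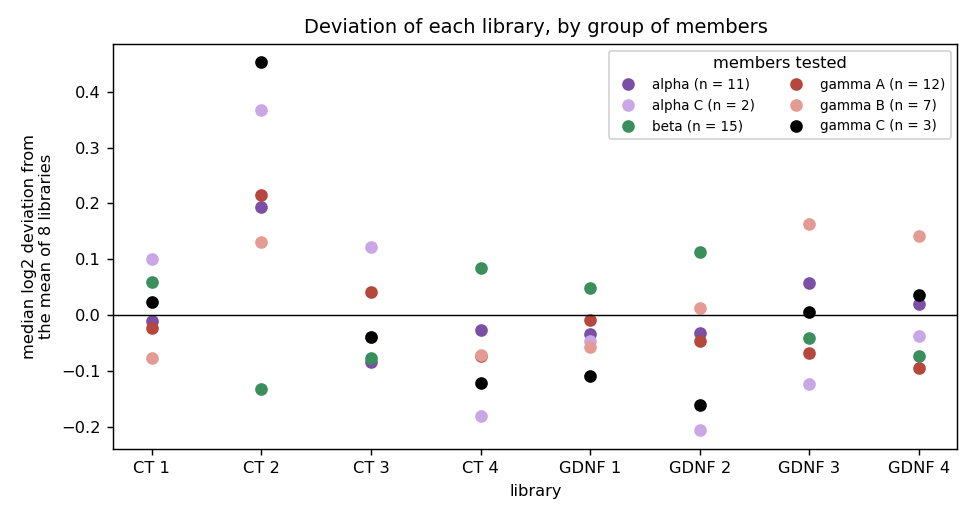
Median log2 deviation of the tested members from the mean of 8 libraries, for each library and each group of members (colours; n is the number of genes). CT replicate 2 has the widest spread between groups of members, from -0.13 for beta to 0.45 for gamma C.

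Sequence likeness between members limits how firmly reads can be given to a gene. Among variable coding exons (nucleotides, GENCODE 29), median identity between pairs was 79.7% in alpha, 78.6% in beta, 74.7% in gamma A, 72.3% in gamma B and 56.1% in gamma C. The most alike pairs were PCDHB8 and PCDHB13 at 93.8%, PCDHB9 and PCDHB10 at 92.7%, PCDHB11 and PCDHB12 at 91.2%, and PCDHA6 and PCDHA8 at 91.1%. Next, 50-base windows of the variable coding exon were sought in transcripts of the other clustered protocadherin genes and pseudogenes only. The share found exactly was 48.8% for PCDHB10, 47.9% for PCDHB8, 46.1% for PCDHB13 and 39.2% for PCDHB9. It was 35.2% for PCDHB2, 35.1% for PCDHA9 and 34.8% for PCDHA6, and 0 for all 5 C-type genes, PCDHB1 and PCDHGB3. Levels differed for 3 of these 4 pairs: PCDHA6 averaged 9.93 and PCDHA8 0.914 CPM per kb, PCDHB10 3.70 and PCDHB9 1.18, and PCDHB13 1.28 and PCDHB8 0.264. PCDHB11 at 1.42 and PCDHB12 at 1.38 CPM per kb overlapped over the libraries. How reads that map to several places were counted is not given in the sources used here, so members with many shared windows may be undercounted.

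Genes of proteins that bind, phosphorylate, cleave or act downstream of protocadherins were compared at the RNA level as a list of 21, all tested. None passed edgeR's test and none had an unadjusted p under 0.05, with 13 log2 fold changes above 0 and 8 below and a median of 0.06, against -0.0098 over all genes. RET gave 70.7, 83.2, 55.4 and 56.8 CPM in CT and 64.9, 62.1, 58.6 and 72.9 CPM in GDNF, with a log2 fold change of -0.04 (SE 0.154). The groups overlapped, and CT replicate 2 was the highest library. The focal adhesion kinase PTK2 and its relative PTK2B, which the alpha and gamma cytoplasmic domains bind and inhibit, had log2 fold changes of 0.07 and -0.11. The kinase FYN, which binds alpha protocadherins in mouse, had one of -0.03, and ADAM10, the protease that sheds the extracellular part, one of 0.07. The smallest unadjusted p in the list was that of AXIN1, at 0.397, with a log2 fold change of -0.17. AXIN1 gave 89.7 CPM in CT replicate 2 and 48.8 to 62.3 CPM in the other libraries.

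Genes that regulate the clusters formed a list of 25, all tested: CTCF, cohesin and its loaders and releasers, DNA and histone methyltransferases and their partners. None passed edgeR's test and none had an unadjusted p under 0.05, with 14 log2 fold changes above 0 and 11 below and a median of 0.04. CTCF, which binds protocadherin promoters and enhancers, gave 77.5, 78.9, 91.1 and 82.8 CPM in CT and 82.8, 76.5, 90.9 and 83.1 CPM in GDNF, with a log2 fold change of 0.01 (SE 0.116). The cohesin subunit RAD21 had a log2 fold change of 0.09 (SE 0.217), and WAPL, which releases cohesin, one of 0.14 (SE 0.204). RAD21 gave 167 CPM and WAPL 24.0 CPM in CT replicate 2, below every other library (266 to 360 and 38.3 to 48.7 CPM). SMCHD1, which silences the clusters in mouse, had a log2 fold change of 0.13 (SE 0.329) and gave 33.8 CPM in CT replicate 2 against 68.5 to 119 CPM elsewhere. DNMT3B, the methyltransferase that sets promoter methylation of the clusters in mouse, had one of -0.09 (SE 0.154). The smallest unadjusted p was that of REST, a repressor of neuronal genes, at 0.421, with a log2 fold change of 0.19.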

How the data were processed

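The authors deposited raw read counts per gene as whole numbers in a table of 8 libraries, not normalized. The tools that the submitters' processing notes name are STAR, HTSeq, cutadapt, FastQC and DESeq2, with GRCh38. Versions, annotation release, strand setting and the treatment of multi-mapping reads: not given in the sources used here. Start and end of 53 of 53 members are identical to GENCODE 29.

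Counts were tested with edgeR 4.0.16 (R 4.3.3; filterByExpr, TMM factors, robust quasi-likelihood test, two-sided, Benjamini-Hochberg over 19999 genes, threshold 0.05), after a test on simulated data. Alternatives were DESeq2 1.42.0 and limma-voom with a quality weight for each library (limma 3.58.1). Further alternatives were other scalings and filters, GC and length offsets, a replicate block and leaving out each library. Total counts limit precision, and floors (3 counts per library) cover counting error only. Members named by rule were the C-type genes, the 3 highest and the lowest of each other group, and the 5 smallest p among those of at least 1 CPM; the others named were chosen after their values were seen. Members, lists and rules were chosen with earlier results of these data known. Protein sequences were not used here, so likeness was taken from nucleotides (Biopython 1.88), in place of the planned protein identity.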

Additional observations from a re-analysis of the deposited data

Results flagged for a closer look

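In each group of 4 libraries, the highest or lowest library was flagged where its gap to the nearest other exceeded Dixon's 95% limit. Of 124 groups examined (53 members and 9 sums, on each coating), 9 were flagged, and chance flags about 1 in 20, or 6.2 of them. CT replicate 2 accounted for 4: it was the highest CT library for PCDHA1 (11.98 CPM, others 7.66 to 7.91), PCDHGC4 (57.7 CPM, others 43.6 to 45.5) and PCDHGC5 (2.66 CPM, others 1.73 to 1.87), and the lowest for PCDHB10 (8.82 CPM, others 12.5 to 12.7). CT replicate 3 was lowest for PCDHA3 (8.47 CPM, others 9.53 to 9.65). In GDNF, replicate 4 was highest for PCDHA13 (0.406 CPM, others 0.171 to 0.202) and lowest for PCDHB10 (10.3 CPM, others 12.8 to 13.3). GDNF replicate 2 was highest for PCDHB3 (11.2 CPM, others 8.62 to 9.05), and GDNF replicate 3 was highest for the summed gamma A genes (98.5 CPM, others 89.2 to 90.3).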

How the results depend on the processing

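Over 18 alternatives, 0 genes and 0 members passed edgeR, DESeq2 or limma-voom, and the smallest adjusted p of a member was 0.925, without CT replicate 4. Counts at an unadjusted p under 0.05 moved more: 1024 genes with no filter, 391 without CT replicate 2, 317 without CT replicate 1, 80 with a minimum of 1 CPM and 347 with GC and length offsets. Of 610 fold changes recomputed for 34 named genes, 556 kept their direction, 54 did not, and 12 genes never turned. Log2 fold changes that turned are as follows. In limma-voom PCDHAC2 was 0.0045, PCDHGC5 0.030, PCDHB5 -0.018, PCDHGB4 -0.018, PCDHGB6 -0.00082, RET 0.032, PTK2B 0.011, ADAM10 -0.076, CTCF -0.0061, RAD21 -0.074, SMCHD1 -0.072 and DNMT3B 0.081. With GC offsets PCDHGC3 was 0.048, RET 0.017, ADAM10 -0.023 and CTCF -0.031. With the replicate block and GC offsets PCDHGC3 was 0.049, PCDHGB6 -0.00029, RET 0.020, ADAM10 -0.018 and CTCF -0.030. With upper quartile factors PCDHGA7 was -0.012 and CTCF -0.0083, and with no filter PCDHA4 was 0.00087. The cause was not tested. Leaving out each library in turn gave -0.138 to 0.249 for ADAM10, -0.268 to 0.0691 for AXIN1, -0.0322 to 0.0627 for CTCF, -0.146 to 0.0393 for DNMT3B, -0.0768 to 0.0682 for PCDHA4, -0.0088 to 0.157 for PCDHA6, -0.177 to 0.0229 for PCDHAC2, -0.0591 to 0.0307 for PCDHB15, -0.116 to 0.00077 for PCDHB2, -0.0142 to 0.0676 for PCDHB5, -0.0892 to 0.0526 for PCDHGA6, -0.0517 to 0.0998 for PCDHGA7, -0.0558 to 0.0798 for PCDHGB6, -0.00015 to 0.104 for PCDHGB7, -0.116 to 0.149 for PCDHGC3, -0.100 to 0.192 for RAD21, -0.119 to 0.0925 for RET, -0.129 to 0.326 for SMCHD1 and -0.0340 to 0.236 for WAPL.

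Same-numbered libraries did not deviate alike throughout: the correlations of their deviations from the group mean were 0.257, -0.302, 0.164 and -0.397. The highest correlation of any pair was 0.485, between CT replicate 2 and GDNF replicate 4, whose deviations both rose with GC content. GC content was not corrected for in this check, so it cannot decide whether the libraries were paired. With the replicate block, 0 genes were called and 112 had an unadjusted p under 0.05. At these depths, members under 1 CPM have the widest intervals.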

Other observations

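Pseudogenes within the clusters were counted as well. PCDHB17P, PCDHB18P and PCDHB19P, which lie among the beta genes, averaged 3.52 ± 0.200, 2.35 ± 0.759 and 1.42 ± 0.483 CPM in CT and 4.02 ± 0.559, 2.38 ± 0.351 and 1.501 ± 0.492 CPM in GDNF (SD, n = 4). These 3 share exact 50-base stretches with beta genes, so the division of reads is uncertain. PCDHGB9P, named after its values were seen, had mean levels of 0.497 ± 0.155 CPM (CT) and 0.265 ± 0.106 CPM (GDNF). It had a log2 fold change of -0.92 (95% CI -1.78 to -0.05) and an adjusted p of 0.9999 in edgeR. PCDHGB8P gave 2 to 15 counts in CT and 3 to 8 in GDNF. PCDHA14 was listed at 0 in all 8 libraries.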
